A study of Rattus norvegicus with 12 samples.

Results

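Transforming growth factor beta (TGF-beta) ligands, their receptors and the SMAD proteins that carry the signal were followed in rat OLN cells, an oligodendroglial cell line. The set holds 9 genes, 3 ligands (Tgfb1, Tgfb2, Tgfb3), 2 receptors (Tgfbr1, Tgfbr2) and 4 SMADs (Smad2, Smad3, Smad4, Smad7). All probe sets whose symbol or title in the deposited annotation names one of these genes were taken, which gave 19 of 31096 probe sets on the array, and 9 of 13034 gene symbols. Smad7 is filed under its older symbol Madh7 and was matched by its title. Of the 19 probe sets, 18 were called present on at least 2 of the 12 arrays and were tested, and the last, a Smad7 probe set, was present on 1 array.

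Every culture carried stably expressed alpha-synuclein, the protein that aggregates in Parkinson's disease and multiple system atrophy. On top of that, p25alpha cells were transfected with p25alpha in pcDNA3.1 and mock cells with an empty control vector, both with Fugene-6, and RNA was taken after 8, 12 and 16 h. p25alpha (gene Tppp) is a tubulin-binding protein of oligodendrocytes. There were 2 experiments with 1 Affymetrix array per arm and time in each, so each of the 6 groups had 2 arrays and each arm 6. Whether each experiment began from its own culture is not stated in the labels. The p-values therefore reflect how far these particular arrays scatter, and that scatter may be technical. RNA came from whole cultures, so fewer cells of a kind and less RNA per cell cannot be told apart.

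TGF-beta ligands are secreted in a latent form and, once released, bind the type II receptor Tgfbr2, which phosphorylates the type I receptor Tgfbr1. Tgfbr1 then phosphorylates Smad2 and Smad3, which join Smad4 and enter the nucleus to change transcription, while Smad7 blocks the activated receptor and is itself induced by the pathway. In the oligodendrocyte lineage the pathway is known for its part in the exit of progenitors from the cell cycle and in their maturation. All of these steps except the transcription of the genes themselves happen on proteins, which arrays do not measure.

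Arrays had 49.3% to 55.2% of probe sets called present, and 19248 probe sets entered the tests. The annotation used here holds no probe set named for Tppp, so the transfected gene is not analysed. Of 15 oligodendrocyte lineage markers 10 were tested, Sox10, Pdgfra, Cnp and Nkx2-2 were present on all 12 arrays, and Olig2 and Mobp were present on 0. Of 6 microglia markers 5 were present on 0 arrays. Markers of other lineages were not all absent. Of 7 astrocyte markers 5 were tested, and Gfap, Slc1a3, S100b and Gja1 were present on all 12 arrays. Of 6 neuron markers 6 were tested, with Snap25 present on 11 arrays and the others on 2 to 6. The experiments stood apart, and 51% of the tested probe sets differed between them at an adjusted p under 0.05, and every comparison was fitted with the experiment as a block (limma, Benjamini-Hochberg adjustment over all 19248 probe sets), and differences are given on the log2 scale with their standard error (SE).

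Detection calls split the members before any comparison of the arms. Tgfb2, Tgfb3, Tgfbr1, Smad2, Smad3 and Smad4 each had at least 1 probe set present on all 12 arrays. Tgfb1 was present on 0 of 6 arrays of experiment 2 and on 6 of 6 arrays of experiment 1. Tgfbr2 was present on 0 of 6 arrays of experiment 2 and on 4 of 6 of experiment 1. The brightest Smad7 probe set was present on 2 arrays of experiment 2 and 6 of experiment 1. Among all tested probe sets, 2.52% were present on 3 or more arrays of experiment 1 and 0 of experiment 2, and 1.12% showed the reverse.

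**Figure D1:**
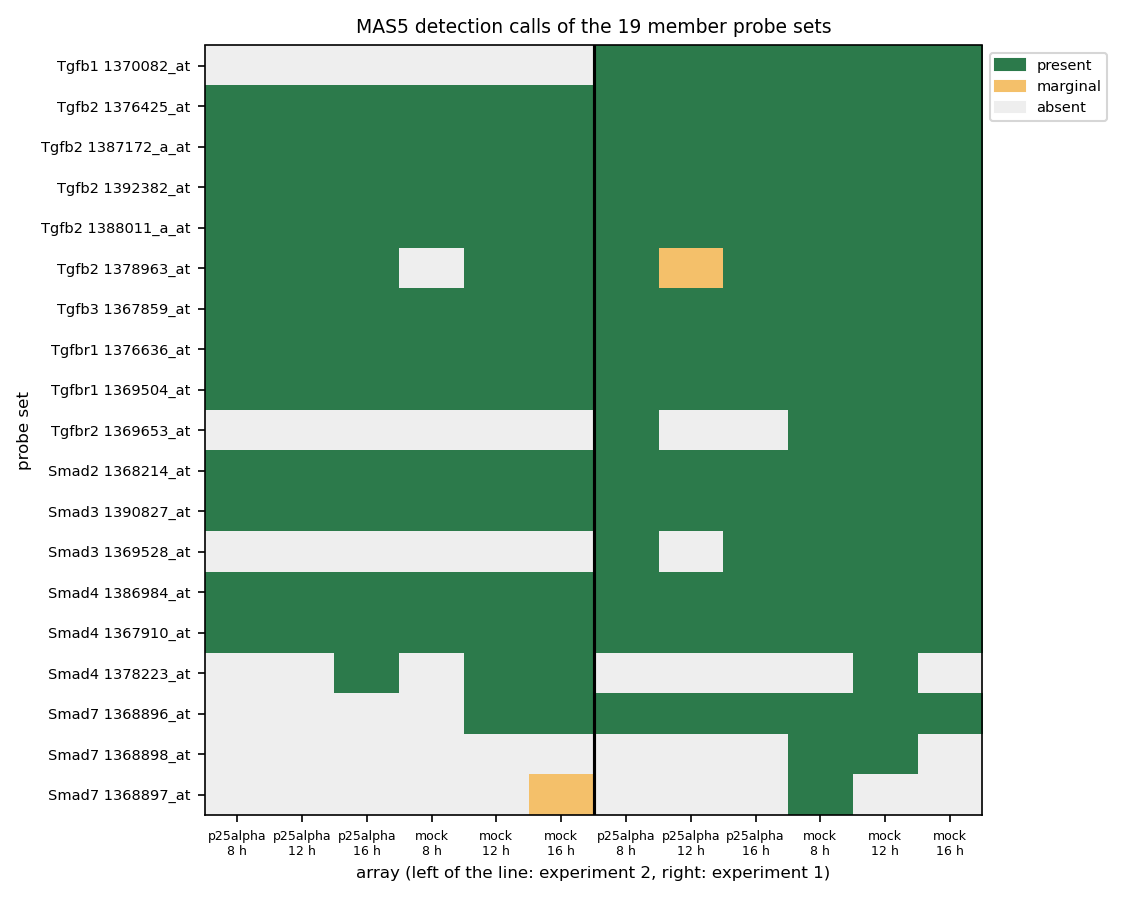
MAS5 detection calls of the 19 member probe sets (rows) on the 12 arrays (columns), with experiment 2 left of the line and experiment 1 right of it, and p25alpha arrays left of mock arrays within each. Green is present, orange marginal and grey absent. Tgfb1 is grey on all 6 arrays of experiment 2 and green on all 6 of experiment 1.

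The sequences before the start of Tgfb1 and Smad3 are shown because both genes were lower in experiment 2 and because their window lies outside the annotated span of the gene. They stand for a ligand and for a SMAD that the receptors activate. They are the 250 bases before the annotated start in RefSeq, build GRCr8. Tgfb1 lies at chr1:90324062-90324311 on the plus strand and Smad3 at chr8:73132325-73132574 on the minus strand. Capitals mark a GC box (GGGCGG on either strand).
Tgfb1: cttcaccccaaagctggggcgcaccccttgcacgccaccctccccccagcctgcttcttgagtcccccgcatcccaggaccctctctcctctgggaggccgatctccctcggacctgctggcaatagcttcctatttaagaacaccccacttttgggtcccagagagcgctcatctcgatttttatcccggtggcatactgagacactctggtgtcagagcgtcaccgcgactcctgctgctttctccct
Smad3: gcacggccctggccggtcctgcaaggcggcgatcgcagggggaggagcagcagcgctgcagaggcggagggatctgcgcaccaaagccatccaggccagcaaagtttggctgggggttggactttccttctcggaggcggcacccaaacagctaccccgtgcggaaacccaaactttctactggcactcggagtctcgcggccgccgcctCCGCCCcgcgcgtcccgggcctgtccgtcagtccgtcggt
A GC box was found in 30.5% of 33469 such windows and in 6 of the 10 windows of the 9 members. Smad2 has more than 1 window, and these overlap and each hold a GC box. Only 4 of the 10 windows lie outside the annotated span of their gene. Tgfb1 has none, and Smad3 has 1 at position -40 from the start. The windows hold 60% and 68.4% G or C, against a median of 51.2% over all windows. The palindrome GTCTAGAC, which SMAD proteins bind, and the AP-1 motif TGACTCA, read on either strand, were found in 0 of the 10 member windows, and in 0.173% and 4.05% of all windows. These matches describe the letters of the windows only.

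The question of the main comparison was whether p25alpha changed the transcripts of the pathway in cells that already make alpha-synuclein. Of the 18 tested member probe sets, 0 passed the adjusted threshold in p25alpha over mock cells at 8 h, 12 h or 16 h, or in the mean of the 3 times (limma with the experiment block). The background was also low, with 0% of all tested probe sets past it at 8 h, 0.0571% at 12 h, 0.0571% at 16 h and 0.239% for the mean of the times. Without the block 0 of 18 passed as well, where 0%, 0.0104%, 0% and 0.0208% of all probe sets did. At an unadjusted p under 0.05 the member counts at 8, 12 and 16 h and for the mean of the times were 2, 0, 1 and 2, where 4.88%, 9.33%, 8.66% and 14% of all probe sets passed. In 6 of 6 pairs of arrays 3 members were lower in p25alpha cells, where 5.01% of all probe sets were, and 0 were higher, where 5.99% were. The median difference over the 18 probe sets was -0.06, beside 0.01 over all tested probe sets, and 7 of 18 lay above 0. The median absolute difference was 0.18 for the members and 0.14 for all.

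**Figure D2:**
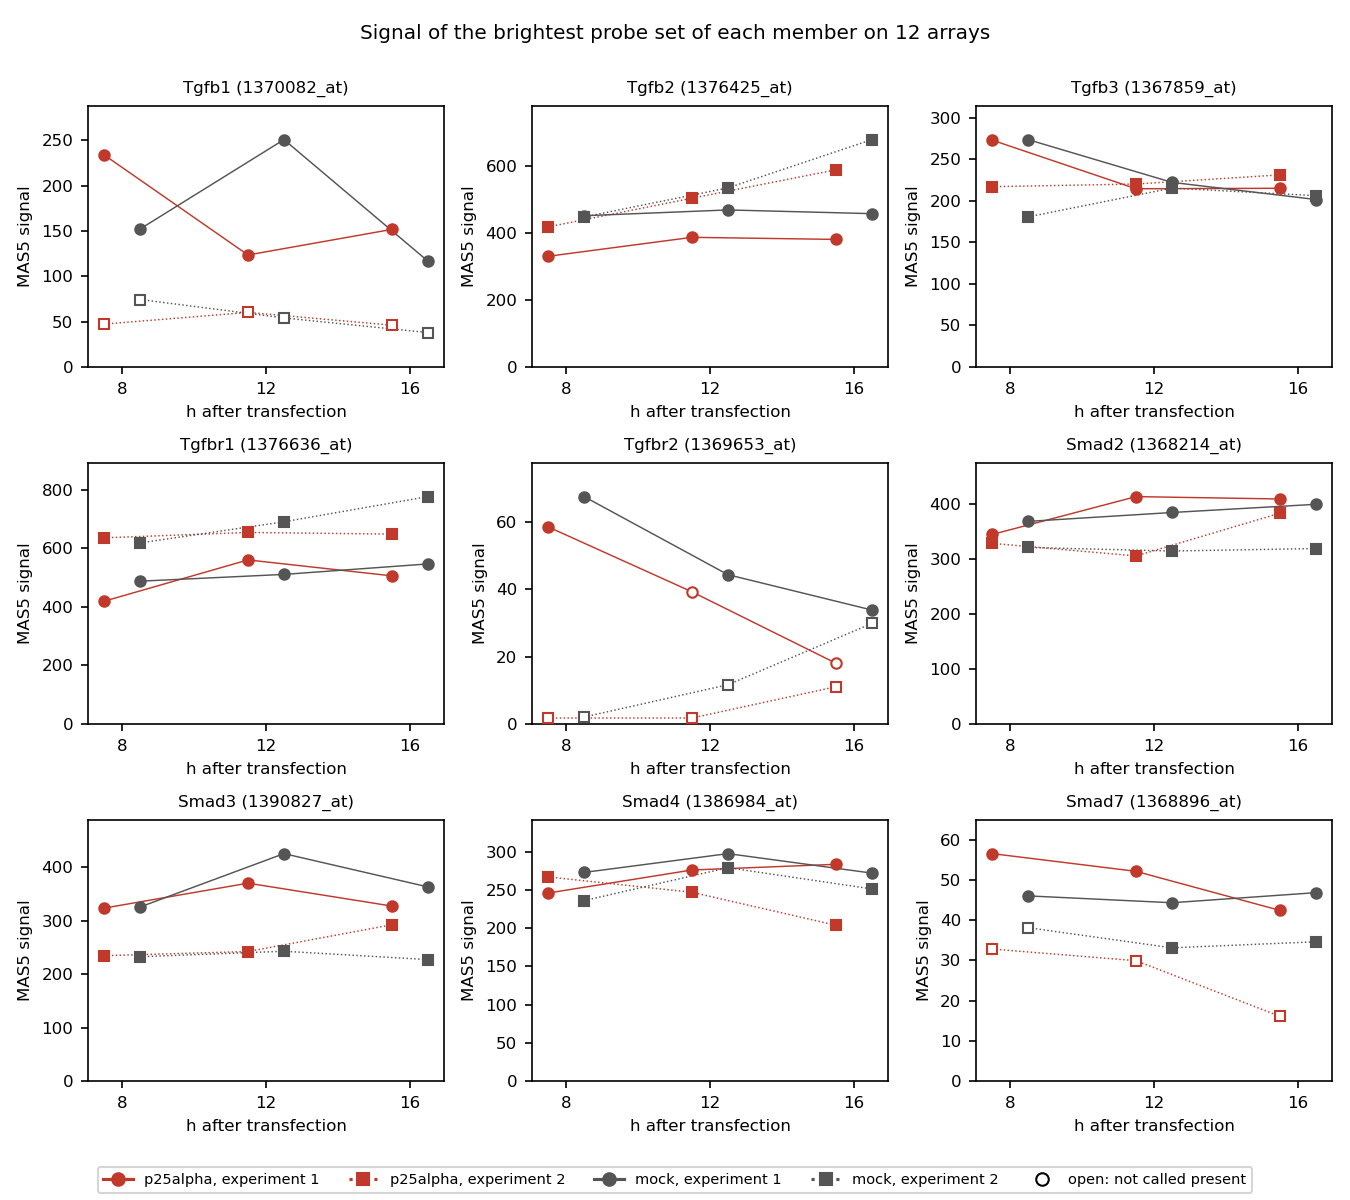
MAS5 signal (vertical axis, linear, each panel with its own scale) of the brightest probe set of each member at 8, 12 and 16 h after transfection (horizontal axis), p25alpha arrays drawn slightly left of mock arrays, circles with solid lines for experiment 1 and squares with dotted lines for experiment 2. Open symbols were not called present. Tgfb1 lies at 38.1 to 74.5 in experiment 2 and at 116.9 to 250.8 in experiment 1, in both arms.

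Among the ligands, Tgfb1 (probe set 1370082_at), the isoform best known from immune and injured tissue, differed more between experiments than between arms. In experiment 2 its signals at 8, 12 and 16 h were 47.4, 60.3 and 46.2 in p25alpha cells, against 74.5, 54.2 and 38.1 in mock cells. In experiment 1 they were 233.9, 123.6 and 151.8 in p25alpha cells, against 152.3, 250.8 and 116.9 in mock cells. The arms overlapped in both experiments, while no array of experiment 2 reached the lowest of experiment 1. The mean difference between p25alpha and mock cells was -0.04 ± 0.20, with a 95% interval of -0.51 to 0.43 (adjusted p = 0.946). In the authors' deposited table of array pairs, Tgfb1 in experiment 1 was called increased at 8 h (signal log ratio 0.7) and decreased at 12 h (signal log ratio -1), and was called unchanged at all times in experiment 2.

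Tgfb2, an isoform made by neurons and glia, was measured by 5 probe sets. The brightest (1376425_at) gave 418.7, 504.3 and 589 at 8, 12 and 16 h in p25alpha cells of experiment 2, against 448.4, 535.2 and 679.3 in mock cells. In experiment 1 it gave 330.9, 387.5 and 381.3 in p25alpha cells, against 452, 469.3 and 458.2 in mock cells. The p25alpha array was the lower one in 6 of 6 pairs. The arms did not overlap in experiment 1 and overlapped in experiment 2. How often the arms lie apart within 1 experiment was not counted over all probe sets. The mean difference was -0.23 ± 0.10 with an interval from -0.47 to 0.01 and did not pass (adjusted p = 0.374). It was -0.13 in experiment 2 and -0.33 in experiment 1.

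The other Tgfb2 probe sets did not all lean the same way. The next 3 in brightness had mean differences between -0.23 and -0.11, and the dimmest (1378963_at), with signals from 14.9 to 35.4, had 0.49 ± 0.18 (adjusted p = 0.31). In the authors' deposited table, decrease calls for Tgfb2 in p25alpha over mock cells all fell in experiment 1, at 12 h and 16 h, and none of these probe sets was called changed in experiment 2. The brightest probe set had none of these calls. It was called unchanged in every pair, with signal log ratios from -0.2 to 0.1.

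Tgfb3 (1367859_at), the third isoform, gave 216.9, 220.1 and 231.1 in p25alpha cells of experiment 2, against 180.6, 215.2 and 206.1 in mock cells. The experiment 1 signals were 272.9, 214.4 and 215 in p25alpha cells, against 273.5, 222.1 and 201.5 in mock cells. The p25alpha arrays lay above the mock arrays without overlap in experiment 2, and the arms overlapped in experiment 1. The share of all probe sets that lie apart in this way was not counted. The mean difference was 0.08 ± 0.11, with an interval from -0.18 to 0.35 (adjusted p = 0.768).

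Of the receptors, Tgfbr1, the type I kinase that phosphorylates Smad2 and Smad3, was bright on every array. Its brighter probe set (1376636_at) gave 635.3, 653.6 and 648 in p25alpha cells of experiment 2, against 618, 690 and 775.8 in mock cells. In experiment 1 it gave 419.1, 559.9 and 505.6 in p25alpha cells, against 487.4, 510.5 and 546.2 in mock cells. The arms overlapped within each experiment, and the mean difference was -0.08 ± 0.08 (interval -0.26 to 0.10, adjusted p = 0.659). The dimmer probe set (1369504_at) gave 33, 55.7 and 53.5 in p25alpha cells of experiment 2, against 31, 28.4 and 21.1 in mock cells, and 37.9, 34.2 and 29 in p25alpha cells of experiment 1, against 58.8, 18.5 and 18.5 in mock cells. It was higher in p25alpha cells in 5 of 6 pairs, with a mean difference of 0.55 ± 0.24 that did not pass (adjusted p = 0.373). Both probe sets are filed under the same gene, and their differences have opposite signs.

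Tgfbr2 (1369653_at), the type II receptor that binds the ligand first, was close to the limit of detection. In experiment 2 its signals were 1.8, 1.8 and 11.1 in p25alpha cells, against 2.1, 11.7 and 29.9 in mock cells, and all 6 were called absent. In experiment 1 they were 58.6, 39.3 and 18.1 in p25alpha cells, against 67.6, 44.4 and 33.9 in mock cells. Tgfbr2 was called present on 1 of 6 p25alpha arrays, at 8 h, and on 3 of 6 mock arrays. The p25alpha array was the lower one in 6 of 6 pairs, but the mean difference of -0.94 ± 0.77 rests mostly on signals called absent, and its interval ran from -2.75 to 0.87 (adjusted p = 0.62).

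**Figure D3:**
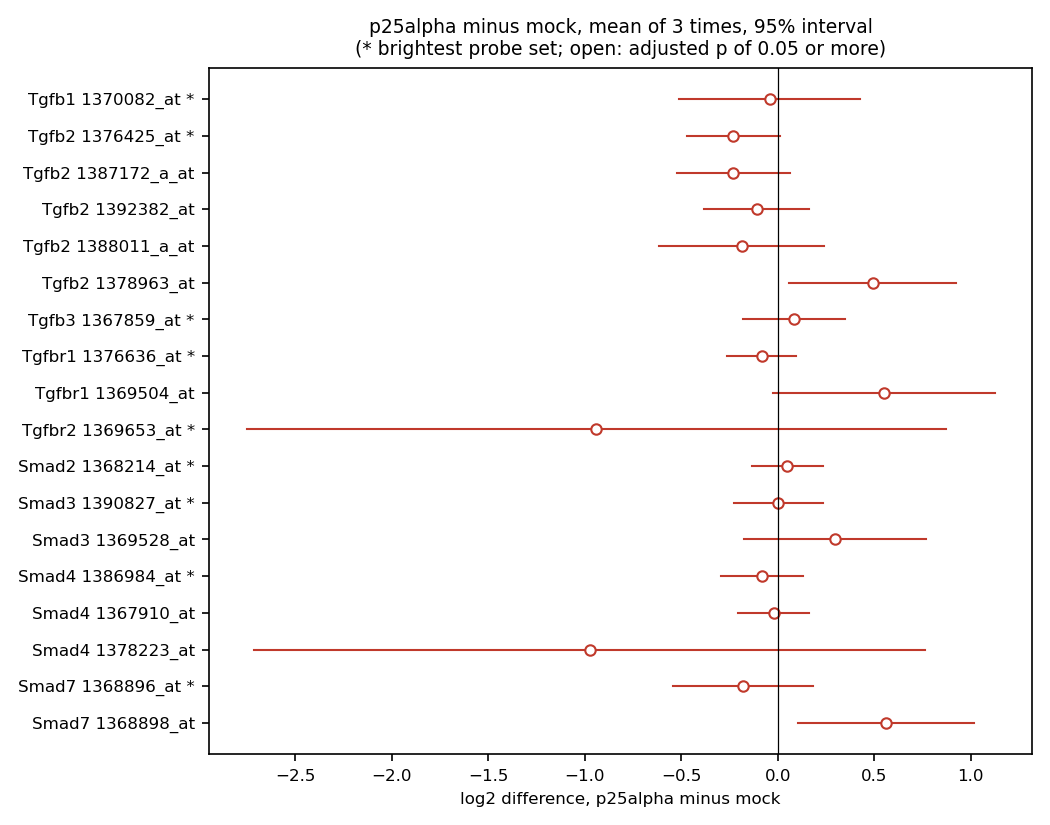
Difference between p25alpha and mock cells, mean of the 3 times, for the 18 tested member probe sets (log2 scale, horizontal axis). Points are the fitted differences, lines their 95% intervals, and a star marks the brightest probe set of a gene. All points are open because 0 of 18 passed the adjusted threshold, and the widest intervals belong to Tgfbr2 and to the dimmest Smad4 probe set.

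Smad2 and the brighter Smad3 probe set, of the receptor-activated SMADs, had narrow intervals around 0. Smad2 (1368214_at) gave 328.9, 306 and 383.8 in p25alpha cells of experiment 2, against 321.5, 315 and 319.5 in mock cells. Signals in experiment 1 were 345.1, 414 and 409.7 in p25alpha cells, against 368.9, 385.1 and 400 in mock cells. Its arms overlapped, with a mean difference of 0.05 ± 0.08 and an interval from -0.13 to 0.23 (adjusted p = 0.808). The brighter Smad3 probe set (1390827_at) gave 234.8, 242.6 and 292.7 in p25alpha cells of experiment 2, against 232.8, 243.1 and 227.5 in mock cells. In experiment 1 it gave 323.9, 370.6 and 327.7 in p25alpha cells, against 326, 425.9 and 363.6 in mock cells. The Smad3 arms also overlapped, with a mean difference of 0.00 ± 0.10 and an interval from -0.23 to 0.23 (adjusted p = 0.994). The dimmer Smad3 probe set (1369528_at), absent on all 6 arrays of experiment 2, ranged from 15.3 to 40.4 on p25alpha arrays and from 13.3 to 41.9 on mock arrays. It was higher in p25alpha cells in 5 of 6 pairs, at 0.30 ± 0.20 with an interval from -0.18 to 0.77 (adjusted p = 0.549).

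Smad4, the common partner of the receptor-activated SMADs, had 3 probe sets. The brightest (1386984_at) gave 267.2, 247.1 and 204 in p25alpha cells of experiment 2, against 236.2, 279.3 and 251.5 in mock cells, and 246.1, 276.3 and 283.7 in p25alpha cells of experiment 1, against 273.1, 297.7 and 272.2 in mock cells. The arms overlapped, and the mean difference was -0.08 ± 0.09 (interval -0.30 to 0.13, adjusted p = 0.708).

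The second Smad4 probe set (1367910_at) was the member whose difference between the arms varied most with time by the F-test. It gave 123.7, 137.9 and 169.1 in p25alpha cells of experiment 2, against 138.9, 131.3 and 136.3 in mock cells, and 128.2, 149 and 184.8 in p25alpha cells of experiment 1, against 190.8, 151.5 and 154.6 in mock cells. The p25alpha array was the lower one at 8 h and the higher one at 16 h in both experiments. The fitted difference was -0.37 ± 0.14 at 8 h. This time dependence had an unadjusted p of 0.0308 and did not pass after adjustment (limma's moderated F-test, adjusted p = 0.999). The remaining Smad4 probe sets were not lower at 8 h and higher at 16 h in both experiments. The dimmest of them (1378223_at), present on 1 of 6 p25alpha arrays and 3 of 6 mock arrays, spanned 1.1 to 16.6 on p25alpha arrays, against 4.9 to 17.5 on mock arrays. It was lower in 6 of 6 pairs, at -0.97 ± 0.73 with an interval from -2.71 to 0.76 (adjusted p = 0.592), mostly on signals called absent. Of all tested probe sets, 0% passed that F-test and 3.96% had an unadjusted p under 0.05.

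Smad7 (1368896_at), the inhibitory SMAD that the pathway induces, gave 32.8, 29.9 and 16.1 in p25alpha cells of experiment 2 with its brightest probe set, against 38.1, 33.1 and 34.6 in mock cells. The experiment 1 arrays gave 56.5, 52.1 and 42.4 in p25alpha cells, against 46, 44.3 and 46.8 in mock cells. It was called present on 3 of 6 p25alpha arrays and 5 of 6 mock arrays. The p25alpha array was the lower one at all times in experiment 2 and at 16 h in experiment 1, and the mean difference of -0.18 ± 0.15 did not pass (interval -0.54 to 0.18, adjusted p = 0.635). The second Smad7 probe set (1368898_at), absent on all 6 p25alpha arrays and present on 2 mock arrays, had 22.8, 29.4 and 26.4 in p25alpha cells of experiment 2, against 17.4, 14.5 and 12.3 in mock cells. In experiment 1 it had 17.6, 9.6 and 14.6 in p25alpha cells, against 11, 10.6 and 11.6 in mock cells. Its mean difference was 0.56 ± 0.19 (adjusted p = 0.28), the smallest adjusted p of the set in this comparison, on signals mostly called absent.

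For the change with time, 0 of 18 member probe sets passed in p25alpha cells at 12 h or 16 h over 8 h, and 0 of 18 in mock cells at 12 h or 16 h over 8 h (limma with the experiment block). Of all probe sets, 0% passed in both comparisons of p25alpha cells, 0.0052% in mock cells at 12 h over 8 h and 0% in mock cells at 16 h over 8 h. At an unadjusted p under 0.05 the member counts in that order were 0, 2, 1 and 1, where 5.55%, 7.41%, 5.21% and 7.4% of all probe sets passed. The 12 h and 16 h comparisons of an arm share its 8 h arrays.

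The values of the brightest Tgfb2 probe set at 16 h over 8 h were 0.35 ± 0.18 in p25alpha cells (interval -0.07 to 0.77, adjusted p = 0.739) and 0.31 ± 0.18 in mock cells (interval -0.11 to 0.73, adjusted p = 0.745). In experiment 2 each later array was brighter than the one before it in both arms, and in experiment 1 the 12 h array was the brightest in both. The other Tgfb2 probe sets at 16 h over 8 h lay between -0.10 and 0.26 in p25alpha cells and between -0.37 and 0.57 in mock cells. Smad7 at 16 h over 8 h in p25alpha cells was -0.72 ± 0.27 with its brightest probe set (adjusted p = 0.641) and -0.03 ± 0.33 with the second. The second Smad4 probe set was 0.49 ± 0.14 there (adjusted p = 0.54), against -0.09 for the brightest and 0.21 for the dimmest. In mock cells at 16 h over 8 h the dimmer Tgfbr1 probe set was -1.11 ± 0.42 (adjusted p = 0.656), against 0.25 ± 0.13 for the brighter one. In the authors' deposited table, 11 of 144 calls for members between successive times were other than unchanged, 5 increases and 6 decreases, where 4.76% of such calls were so over all tested probe sets. Between the arms 7 of 108 calls were so, 2 increases and 5 decreases, where 5.19% were over all.

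All member probe sets that passed the adjusted threshold did so in the comparison of the experiments. Of the 18 probe sets, 11 passed in experiment 2 over experiment 1, 5 higher and 6 lower, where 51% of all tested probe sets passed, 29.4% higher and 21.6% lower. Among those that passed, Tgfb1, Tgfbr2, the dimmer Smad3 and the second Smad7 probe set met the detection filter only through arrays of experiment 1. The members' share lies close to the background and is no result about the pathway as such. The median difference over the members was -0.12, beside 0.12 over all probe sets.

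**Figure D4:**
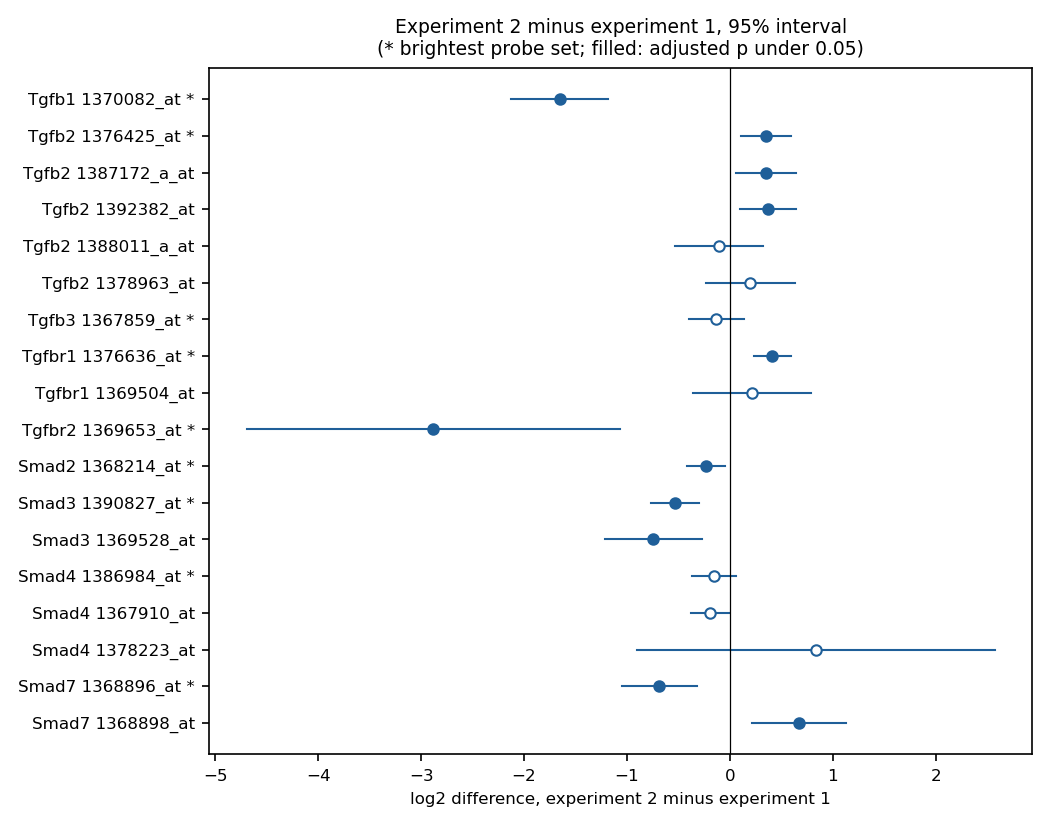
Difference between experiment 2 and experiment 1 for the 18 tested member probe sets (log2 scale, horizontal axis), with 95% intervals as lines. Filled points passed the adjusted threshold, and a star marks the brightest probe set of a gene. Tgfb1 and Tgfbr2 lie furthest to the left, and the brighter Tgfbr1 and 3 of the 5 Tgfb2 probe sets are filled points to the right of 0.

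Tgfb1 was lower by the largest margin relative to its error, with a difference of -1.65 ± 0.20 (adjusted p = 0.000851). It was absent throughout experiment 2, so this difference rests on signals called absent there, and is written as at least 3.14-fold lower in experiment 2. Tgfbr2 was lower at -2.88 ± 0.77 (adjusted p = 0.0181), at least 5.0-fold lower by the same rule. Both probe sets entered the tests only through their present calls in experiment 1. Their adjusted p is therefore no independent support for a lower level in experiment 2. For each array without detection, the bound takes the probe set's signal or, if larger, the smallest signal called present there (2.9 to 6.4). For Tgfb1 the probe set's own signal was always the larger, so the bound equals the fitted fold and is not a guaranteed minimum. For Tgfbr2 it is smaller than the fitted fold. It is no guaranteed minimum there either, because the larger of its absent signals entered the bound as they were. The Tgfbr2 signals of the experiments overlapped, at 1.8 to 29.9 in experiment 2 and 18.1 to 67.6 in experiment 1. In experiment 1 it was called present on 4 of 6 arrays.

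Smad3 was lower in experiment 2 over experiment 1 at -0.53 ± 0.10 with its brighter probe set (adjusted p = 0.00411). The dimmer one, absent throughout experiment 2, was lower at -0.75 ± 0.20 (adjusted p = 0.0186), or 1.68-fold. As for Tgfb1, the bound for this probe set equals the fitted fold and is not a guaranteed minimum. It too entered the tests only through present calls in experiment 1. The brighter one ran from 227.5 to 292.7 on the arrays of experiment 2, against 323.9 to 425.9 on those of experiment 1, without overlap. Smad2 was lower at -0.24 ± 0.08 (adjusted p = 0.0398), with arrays that overlapped. The brightest Smad7 probe set was lower at -0.69 ± 0.15 (adjusted p = 0.00924), while the dimmer one was higher at 0.67 ± 0.19 (adjusted p = 0.0237), on signals that were all absent in experiment 2.

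Tgfbr1 rose, at 0.41 ± 0.08 with its brighter probe set (adjusted p = 0.00431), and its signals of 618 to 775.8 in experiment 2 did not overlap those of 419.1 to 559.9 in experiment 1. Tgfb2 rose by 3 of its 5 probe sets, with differences from 0.35 to 0.37 and adjusted p from 0.0256 to 0.0495. Tgfb3 and the 3 Smad4 probe sets did not pass, with -0.13 ± 0.11 for Tgfb3 (adjusted p = 0.349). Of all tested probe sets, 28.9% had experiments that did not overlap. The ratio of the 3′ to the 5′ actin control probe sets moved with the experiment, at 4.65 to 7.05 in experiment 2 and 2.14 to 3.12 in experiment 1, while that of GAPDH was 0.898 to 1.03 in experiment 2 and 0.969 to 1.09 in experiment 1. Their part in the differences of the members was not tested.

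Other genes of the pathway were read from 4 lists. Of 30 listed target genes of TGF-beta, 24 were tested, and 2 rose in p25alpha over mock cells in the mean of the 3 times, 0 fell and 22 did not pass, where 0.208% of all probe sets rose and 0.0312% fell. The median over the 24 was 0.13, beside 0.01 over all probe sets, and 16 lay above 0. The 2 that rose were Myc and Ier3, early-response genes that many stimuli besides TGF-beta induce, and Myc is repressed by TGF-beta in many epithelial cells.

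**Figure D5:**
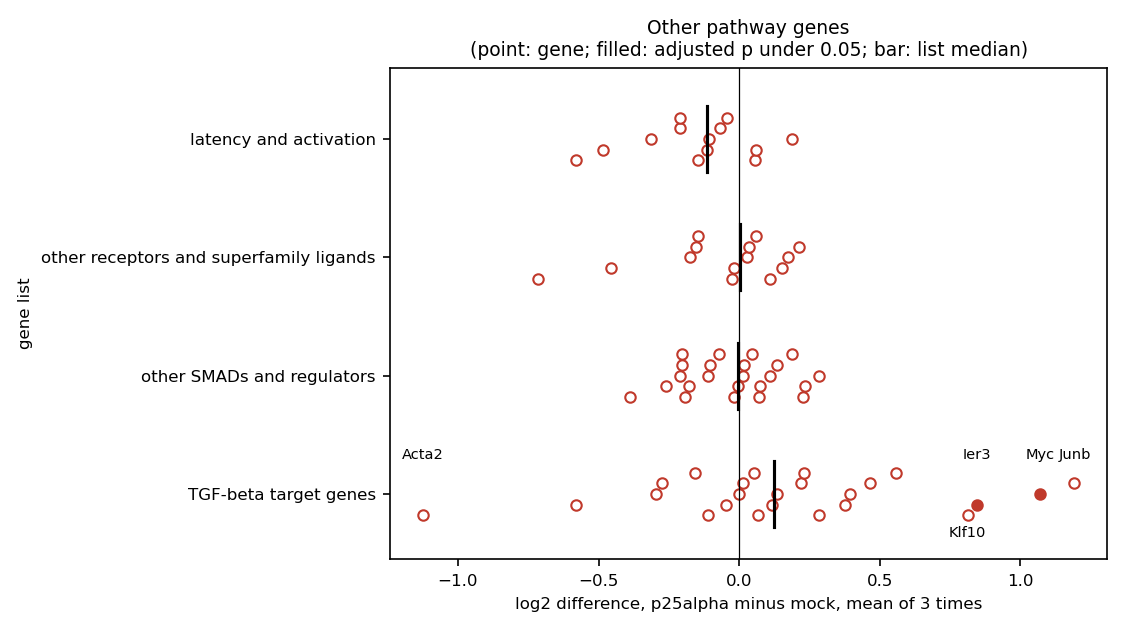
Difference between p25alpha and mock cells, mean of the 3 times, for the tested genes of 4 pathway lists (log2 scale, horizontal axis). Each point is a gene by its brightest tested probe set, black bars are list medians, and the 2 filled points, Myc and Ier3, passed the adjusted threshold.

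Myc, a transcription factor that drives growth and division, gave 338.6, 441 and 372.3 at 8, 12 and 16 h in p25alpha cells of experiment 2, against 219.5, 181.7 and 123.4 in mock cells. In experiment 1 it gave 423.4, 564.7 and 672.3 in p25alpha cells, against 311.9, 288.6 and 236.3 in mock cells. All 6 p25alpha arrays lay above all 6 mock arrays, as for 0.431% of all tested probe sets. The mean difference was 1.07 ± 0.11, a 2.10-fold rise (adjusted p = 0.0215 with the experiment block, 0.63 without it).

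Ier3, an early-response gene linked to cell survival, gave 1209.9, 1376.7 and 1259.5 in p25alpha cells of experiment 2, against 725.9, 697.8 and 644.7 in mock cells. Experiment 1 gave 1829.5, 2205.7 and 2342.3 in p25alpha cells, against 1066.3, 1263.5 and 1345.2 in mock cells. The arms did not overlap within either experiment, for which no share over all probe sets was counted. The mean difference was 0.84 ± 0.09, a 1.80-fold rise (adjusted p = 0.0285 with the experiment block, 1 without it). With the experiment as a random block at an estimated correlation Ier3 did not pass (adjusted p = 0.0566), and Myc did (adjusted p = 0.0217). Leaving out single arrays left an adjusted p of 0.0557 to 0.124 for Ier3 and of 0.0402 to 0.0988 for Myc, and Myc kept its call only without the 16 h p25alpha array of experiment 2.

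Other targets often used to read TGF-beta activity did not pass. The difference was 0.07 ± 0.07 for Ccn2, the connective tissue growth factor (adjusted p = 0.716). It was 0.13 ± 0.11 for Pmepa1, a feedback inhibitor of the pathway (adjusted p = 0.628), and -0.05 ± 0.12 for Tgfbi, an extracellular matrix protein (adjusted p = 0.884). These genes had no common direction. Values near the threshold were 1.19 ± 0.16 for Junb, an AP-1 subunit (adjusted p = 0.0519), and 0.46 ± 0.07 for Id1, an inhibitor of differentiation (adjusted p = 0.0843). Klf10, a TGF-beta-inducible zinc finger factor, had 0.81 ± 0.15 (adjusted p = 0.121), and Acta2, smooth muscle actin, had -1.12 ± 0.31 (adjusted p = 0.213). Acta2 also stands among 7 fibroblast and smooth muscle markers, of which 6 were tested, 0 passed and 1 lay above 0, and whose summed signal ran from 251.8 to 484.2 on p25alpha arrays and from 330.1 to 490.2 on mock arrays. Their part in these values was not tested.

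Of 22 genes of ligand storage and activation, 13 were tested and 0 passed, with a median of -0.11 and 3 above 0. The largest differences were -0.58 ± 0.34 for Ltbp2 (adjusted p = 0.495) and -0.48 ± 0.28 for Ltbp4 (adjusted p = 0.486). Both genes are named as latent TGF-beta binding proteins. Ltbp2 was called present on 1 of 6 p25alpha arrays and 5 of 6 mock arrays. Ltbp4 was called present on 2 of 6 arrays in each arm and on 0 arrays of experiment 2, so these differences rest largely on signals called absent. Of 28 other receptors and ligands of the superfamily, 14 were tested and 0 passed, with a median of 0.00. The signals of Bmpr2, the type II receptor for bone morphogenetic proteins, spanned 57.9 to 131.8 on the p25alpha arrays, against 135.2 to 152.8 on the mock arrays. Its arms did not overlap, as for 0.265% of all tested probe sets with p25alpha lower, but the difference of -0.46 ± 0.17 did not pass (adjusted p = 0.299). Fstl3, a secreted binder of activin, was called present on 0 of 6 p25alpha arrays and 2 of 6 mock arrays (adjusted p = 0.345).

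Of 28 other SMADs and regulators, 23 were tested and 0 passed, with a median of -0.01. Tgfb1i1, a focal adhesion protein and coactivator, had -0.39 ± 0.24 (adjusted p = 0.522). Tgif1, a corepressor of SMADs, was higher in 6 of 6 pairs at 0.28 ± 0.09 and did not pass (adjusted p = 0.269). Between the experiments, 12 of those 23 passed, 1 higher and 11 lower in experiment 2, which included Pmepa1 at -2.03 (adjusted p = 0.000171), where 29.4% of all probe sets were higher and 21.6% lower. In the same comparison 4 tested genes of ligand storage and activation were higher and 4 lower, 4 other receptors and ligands were higher and 2 lower, and 4 target genes were higher and 8 lower. Ltbp2, Pmepa1, Smad6 and Tgif1 each stand on 2 of the lists.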

How the data were processed

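Total RNA from 12 OLN cultures was labelled as biotinylated cRNA and hybridised to 1 Affymetrix rat array each, per the labels' protocols. MAS5 was used, per the submitters' processing notes, without a version. The intensity values deposited by the authors are MAS5 signals on a linear scale, and their 2% trimmed mean was 150.1 on every array, so the authors scaled them to a common level. Detection calls (present, marginal, absent) were deposited with them and, for pairs of arrays, signal log ratios on the log2 scale with change calls, per the file headers.

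Samples were grouped by title, with the experiment number as the replicate. Signals were floored at 0.1 and log2 was taken. The tests took 19248 probe sets (61.9%), those present on 2 or more of the 12 arrays apart from 57 controls. On the log scale dim signals scatter widely, so differences of dim probe sets are imprecise, and 2 arrays per group limit the precision. Levels of different probe sets were not compared.

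limma 3.58.1 in R 4.3.3 (lmFit, eBayes) fitted 6 group means with the experiment as a block, since the members were to be paired by experiment. It had 5 residual and 2.01 prior degrees of freedom. Arrays with the same experiment number deviated together from their group means, with correlations of 0.47 to 0.57 over the 15 pairs of groups, and so the numbers pair the arrays. The p-values were adjusted by Benjamini and Hochberg's method over the whole table, and 0.05 was the threshold. The intervals are 95% intervals of the same fit.

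Each gene was led by its brightest tested probe set. In the pathway lists, genes past the threshold were named, or the 2 with the largest difference where none passed. The other named target genes were chosen after their values were seen. The members and lists were chosen with earlier results of these data known. Symbols were updated through, and promoter windows taken from, RefSeq tables of build GRCr8, and all 9 members matched. Alternatives were no block, a random block, quantile normalization, median centring, other filters, an offset of 50, eBayes with trend and robust, the mean over probe sets and leaving out each array. Fits within 1 experiment, and the alternatives for the target genes, were chosen after seeing the data. The fit was run on simulated data with known changes, and only p25alpha over mock cells in the mean of the times was checked there. The other steps were not run on simulated data. One listed target gene is counted in its list but is not reported here by name.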

Additional observations from a re-analysis of the deposited data

How the results depend on the processing

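For p25alpha over mock cells and for both arms over time, 0 member probe sets passed in the paired fit, without the replicate block, and under the other 19 settings (21 for the mean of the times), including the 12 that left out an array (range 0 to 0). The smallest adjusted p of any member under any setting was 0.19. For experiment 2 over experiment 1, 11 members passed in the paired fit, 6 without the filter, 6 with only probe sets present on all 12 arrays, and 6 to 8 when an array was left out. The stricter filter also tested fewer members, and otherwise the cause was not tested. Averaging over a gene's probe sets gave -0.05 for Tgfb2, 0.23 for Tgfbr1, 0.15 for Smad3, -0.36 for Smad4 and 0.19 for Smad7, so the signs of Tgfbr1 and Smad7 depend on the probe set. That of Tgfb2 does as well, since its dimmest probe set has the opposite sign to the others. Tgfb3 lay between -0.01 and 0.18, and Tgfb1 between -0.17 and 0.09, when an array was left out.

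The count of 2 target genes was 0 without the replicate block, 0 without the filter, 4 with only probe sets present on all 12 arrays, 7 with the offset of 50, 6 with trend and robust, and 0 to 1 when an array was left out. With the random block, at a correlation of 0.57, 2 target genes passed, Myc among them, while Ier3 had an adjusted p of 0.0566. Within experiment 2 and experiment 1 alone, Myc had differences of 1.17 and 0.97 and Ier3 of 0.89 and 0.79, and 0 targets passed. The median of all probe sets was 0.01 in the paired fit, -0.01 after quantile normalization and 0.00 after median centring. Probe sets called absent on many arrays, such as those of Tgfbr2 and the dim ones of Smad4 and Smad7, limit what can be read from their differences.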

Other observations

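Likeness of profiles was listed for the member with the smallest p in p25alpha over mock cells (mean of the times) and for the one with the smallest p in mock cells at 16 h over 8 h, as Pearson's r over the 12 arrays, after centring each experiment on its mean. The genes most like the dimmer Smad7 probe set were Commd9 (r = 0.95), Mrps26 (r = 0.93) and Arhgap28 (r = 0.92). Those most like the dimmer Tgfbr1 probe set were Aqr (r = 0.94), Numb (r = 0.92) and Snx15 (r = 0.89). These are the highest correlations among the tested probe sets with 1 gene symbol other than the member's. The arrays share an experiment, an arm and a time, and the values are given as a description only. The Smad7 probe set was called absent on 10 of 12 arrays, whereas Commd9 and Mrps26 were present on all 12.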
